A study of Mus musculus with 7 samples.

Results

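A set of 10 genes, chosen by symbol, was followed in bulk liver RNA: S100a8, S100a9 and Retnlg, which mature neutrophils transcribe strongly, Ngp, Camp and Ltf of the specific granule, Elane and Mpo of the azurophil granule, and the surface receptors Ly6g and Csf3r. All 10 members were found among the 23594 genes of the table, and 4 of them reached the mean of 10 normalized counts needed for the test across genes. The livers came from 4 TgLC and 3 TgL mice. TgLC mice carry a mouse Lif transgene behind a CAG promoter and a STOP cassette at Rosa26, together with the ubiquitously expressed R26-CreERT2, so that tamoxifen (TAM) turns the transgene on in every tissue. TgL mice carry the same silent transgene without Cre, and they received TAM too. The mice were 8 weeks old, both sexes were used, and the dose was 32 µg/g in females and 64 µg/g in males. Which mice were female, and the day of liver collection, are not stated in the labels or methods. Lif itself had 10, 12, 10 and 25 reads in the TgLC livers, against 1, 2 and 0 reads in the TgL livers, so that every TgLC liver lay above every TgL liver, as the genotype labels have it.

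Neutrophils build their granules in order while they mature in the bone marrow. Azurophil granules, with myeloperoxidase and the serine proteases, are filled at the promyelocyte stage, and specific granules, with lactoferrin and cathelicidin, at the myelocyte stage. A neutrophil that has reached blood or tissue has largely stopped transcribing granule genes, but it still holds abundant mRNA for S100a8 and S100a9, the subunits of the calcium-binding complex calprotectin. The liver holds neutrophils in its sinusoids, and hepatocytes answer cytokines of the interleukin-6 family, to which LIF belongs, by making acute-phase proteins.

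Every library held between 9367681 and 12448961 reads, and 1 read was worth 0.894 to 1.02 normalized counts. At this depth the 10 members together took 202, 179, 139 and 93 reads in the TgLC livers, against 50, 33 and 100 reads in the TgL livers. The highest TgL liver (TgL replicate 3) lay above the lowest TgLC liver (TgLC replicate 4). The mouse titles were sorted here into 2 series. TgLC replicates 1 and 2 and TgL replicates 1 and 2 have close numbers as titles and form series A. Series B holds the remaining livers. Of these, TgL replicate 3 has a more distant number, and TgLC replicates 3 and 4 have titles of another form. That form occurs only in TgLC livers, so within series B it cannot be told apart from genotype. What the titles stand for is not given, and values are printed within each series below. Of the 13145 genes tested, 16.2% were called higher and 15.0% lower in TgLC livers (limma, Benjamini-Hochberg adjusted p under 0.05), that is, 2127 and 1977 genes. Scaling by library totals in edgeR moved the median gene by -0.30 on the log2 scale and gave 1174 higher and 4286 lower.

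The stretch of 250 bases before the transcription start of 6 genes is shown because S100a8, S100a9 and Retnlg rose in TgLC livers, Ngp did not, and Prtn3 and Elane are neighbours whose levels differed widely. The sequences are those of RefSeq on GRCm38.p6, in which all 10 members had a window. Capitals mark matches to a C/EBP motif, the site of a transcription factor family that acts in myeloid cells and in the acute-phase liver. The letters searched were TTGCNNAA on either strand, where the other strand reads TTNNGCAA.
S100a8 (chr3:90668821-90669070, plus strand): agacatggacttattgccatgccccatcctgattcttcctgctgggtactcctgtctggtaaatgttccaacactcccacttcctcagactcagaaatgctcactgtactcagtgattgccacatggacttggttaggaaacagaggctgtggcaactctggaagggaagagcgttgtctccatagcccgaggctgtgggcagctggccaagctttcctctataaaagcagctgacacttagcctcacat
S100a9 (chr3:90695722-90695971, minus strand): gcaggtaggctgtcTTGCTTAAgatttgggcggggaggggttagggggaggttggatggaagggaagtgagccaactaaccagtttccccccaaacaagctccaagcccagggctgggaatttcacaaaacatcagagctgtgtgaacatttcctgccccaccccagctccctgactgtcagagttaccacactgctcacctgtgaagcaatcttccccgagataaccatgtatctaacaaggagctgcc
Retnlg (chr16:48872358-48872607, plus strand): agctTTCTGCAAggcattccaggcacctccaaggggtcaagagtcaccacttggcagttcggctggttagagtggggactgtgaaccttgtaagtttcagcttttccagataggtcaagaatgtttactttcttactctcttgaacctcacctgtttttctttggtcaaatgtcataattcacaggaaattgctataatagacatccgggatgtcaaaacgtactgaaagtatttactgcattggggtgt
Ngp (chr9:110419558-110419807, plus strand): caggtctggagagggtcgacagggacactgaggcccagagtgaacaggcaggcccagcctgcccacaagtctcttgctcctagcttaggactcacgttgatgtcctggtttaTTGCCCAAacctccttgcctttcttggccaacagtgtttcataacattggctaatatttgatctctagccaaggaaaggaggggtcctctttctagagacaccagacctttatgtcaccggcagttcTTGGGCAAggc
Prtn3 (chr10:79879417-79879666, plus strand): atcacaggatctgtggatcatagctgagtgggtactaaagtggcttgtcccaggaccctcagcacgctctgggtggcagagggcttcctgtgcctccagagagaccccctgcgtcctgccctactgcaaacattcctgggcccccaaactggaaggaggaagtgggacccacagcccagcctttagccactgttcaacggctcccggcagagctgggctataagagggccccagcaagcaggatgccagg
Elane (chr10:79886062-79886311, plus strand): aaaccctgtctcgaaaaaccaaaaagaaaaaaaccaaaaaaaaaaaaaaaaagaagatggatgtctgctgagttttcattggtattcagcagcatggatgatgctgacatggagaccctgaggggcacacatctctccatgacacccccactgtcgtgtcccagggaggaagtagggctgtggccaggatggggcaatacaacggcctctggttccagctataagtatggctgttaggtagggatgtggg
Matches stood 236 bases before the start of S100a9, 246 bases before that of Retnlg, and 138 and 11 bases before that of Ngp. Of the 10 members, 5 held a match in a window (S100a9, Retnlg, Ngp, Ltf and Ly6g), as did 9.56% of all 32851 windows of this length. No member window held the STAT motif TTCNNNGAA, which reads the same on both strands and was present in 7.02% of all windows. Nor did the Prtn3 window hold the STAT motif, so the 2 motifs could not overlap in these windows. A match is a run of letters and was not tested for binding.

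The genes that mature neutrophils transcribe strongly were higher in TgLC livers. S100a8, S100a9 and Retnlg all passed the test, and in each of them every TgLC liver lay above every TgL liver. Among all genes with a mean of at least 10, 21.1% had their groups apart in this direction. Their summed reads were 129, 112, 88 and 63 in TgLC livers, against 13, 7 and 35 in TgL livers. In bulk RNA, more cells of a type and more RNA per cell cannot be told apart, nor can the cells that made a read. Whether the higher level here came from more neutrophils, more message in each or other cells was not tested.

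S100a8, which encodes the smaller calprotectin subunit, had 45, 42, 27 and 19 reads in the TgLC livers, against 4, 2 and 10 reads in the TgL livers. The means were 33.6 ± 12.5 normalized counts in TgLC (SD, n = 4) and 5.25 ± 4.35 in TgL (SD, n = 3). The log2 fold change was 2.61 with an SE of 0.51 (limma, adjusted p = 0.00481). The series A livers of TgLC stood highest, and the highest TgL liver was the series B one.

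S100a9, which encodes the partner subunit, had 55, 46, 48 and 31 reads in the TgLC livers, against 9, 4 and 23 reads in the TgL livers. Its log2 fold change was 2.14 with an SE of 0.49 (limma, adjusted p = 0.0108). The gap between the groups was narrow, because TgL replicate 3 came close to TgLC replicate 4. S100a8 and S100a9 lie 22595 bases apart on chromosome 3, and their reads were shared out differently in the groups. S100a8 took 45.0%, 47.7%, 36.0% and 38.0% of the reads of the pair in TgLC livers, against 30.8%, 33.3% and 30.3% in TgL livers. The exact binomial 95% intervals of single livers overlap, from 24.7% to 52.8% in TgLC replicate 4 and from 15.6% to 48.7% in TgL replicate 3. This share was computed after the values had been seen, and it was not tested.

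Retnlg, a resistin-like secreted protein that neutrophils make in mice, showed the widest ratio of the members tested. It had 29, 24, 13 and 13 reads in the TgLC livers, against 0, 1 and 2 reads in the TgL livers. Its log2 fold change was 3.44 with an SE of 0.56 (limma, adjusted p = 0.00206). With 3 reads over all TgL livers, the ratio of summed reads per size factor was 20.6 with an exact 95% counting interval of 6.80 to 102. Retnlg and S100a8 reached the mean of 10 normalized counts only through the TgLC livers, so that their passing adds no weight to the count of 3 members of 4 tested. Retnlg stayed under that minimum when TgLC replicate 1 or 2 was left out, which left 2 members called.

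**Figure D1:**
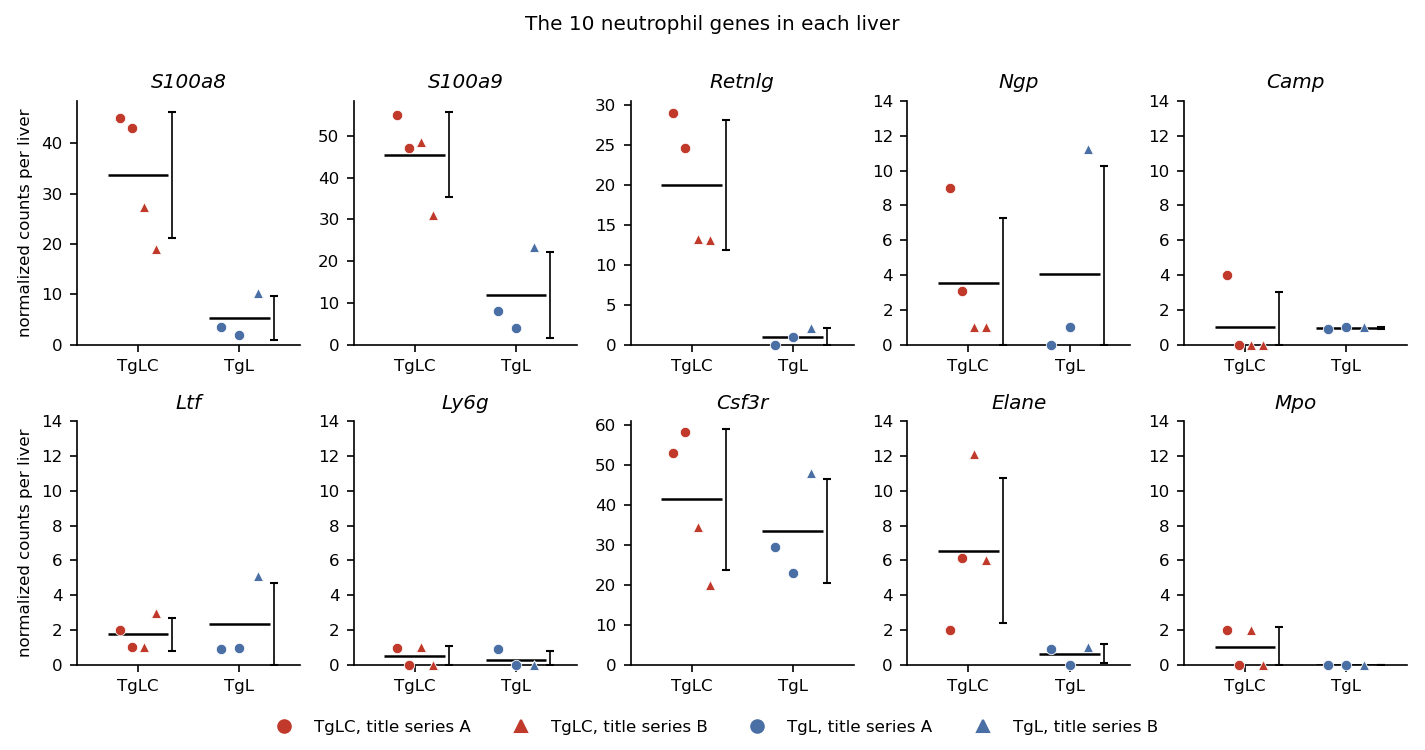
Normalized counts (vertical axis, 1 panel per gene) of the 10 neutrophil genes in 4 TgLC and 3 TgL livers. Points are livers, circles and triangles mark title series A and B, lines are group means, and bars are ± 1 SD cut at 0. S100a8, S100a9, Retnlg and Elane have every TgLC liver above every TgL liver, whereas the other 6 genes overlap.

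The receptor genes did not follow. Csf3r, the receptor for the growth factor G-CSF that drives neutrophil production and release, had 53, 57, 34 and 20 reads in the TgLC livers, against 33, 23 and 47 reads in the TgL livers. The groups overlapped, with TgLC replicate 4 lowest of all livers. The log2 fold change was 0.26 with an SE of 0.40 (limma, adjusted p = 0.657). Ly6g, the surface antigen by which mouse neutrophils are usually stained, had 1, 0, 1 and 0 reads in TgLC livers, against 1, 0 and 0 reads in TgL livers. A count of 0 allows up to 3 reads, so no difference in Ly6g was detectable at this depth.

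The specific granule genes were near the floor in both genotypes. Ngp, a cystatin-like protein of the granule matrix, had 9, 3, 1 and 1 reads in TgLC livers, against 0, 1 and 11 reads in TgL livers. Its highest liver was thus a TgL liver, TgL replicate 3. Camp, the precursor of the antimicrobial peptide CRAMP, had 4, 0, 0 and 0 reads in TgLC livers, against 1, 1 and 1 reads in TgL livers. Ltf, lactoferrin, had 2, 1, 1 and 3 reads in TgLC livers, against 1, 1 and 5 reads in TgL livers. Neither group stood apart in any of them. The summed reads of the 3 genes were 15, 4, 2 and 4 in TgLC livers, against 2, 3 and 17 in TgL livers, and the ratio for Ngp was 0.914 with a 95% counting interval of 0.392 to 2.16. That interval holds both equal levels and a change of 2-fold in either direction. TgL replicate 3 carried most Ngp and Ltf reads of its group and also most S100a8, S100a9 and Csf3r reads.

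The azurophil granule genes gave few reads as well, but those of Elane fell mostly in TgLC livers. Elane, neutrophil elastase, had 2, 6, 12 and 6 reads in the TgLC livers, against 1, 0 and 1 reads in the TgL livers. Every TgLC liver was thus above every TgL liver, and the ratio was 10.2 with a 95% counting interval of 2.55 to 88.5. The exact two-sided permutation test of the means gave p = 0.0571, the smallest that 4 mice against 3 allow. Elane was the 1 of 6 low-count members with its groups apart, and 3.95% of the genes under the minimum had theirs apart in this direction. It passed when no minimum was set (limma, adjusted p = 0.0291) and in DESeq2 on the reads (adjusted p = 0.0456). Mpo, myeloperoxidase, had 2, 0, 2 and 0 reads in TgLC livers, against 0 reads in each TgL liver, and its exact permutation p was 0.571.

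Per kilobase of exon, the order of levels in TgLC livers ran from S100a9 (87.0 normalized counts per kilobase) through S100a8 (48.4) and Retnlg (33.6) to Csf3r (11.5), Elane (6.68) and Ngp (2.88). In TgL livers the same scale gave 22.7 for S100a9, 7.57 for S100a8, 1.71 for Retnlg, 9.27 for Csf3r, 0.648 for Elane and 3.33 for Ngp. Csf3r thus stood below S100a8 and Retnlg in TgLC livers and above both in TgL livers. The remaining members were at or under 1.32 per kilobase in either group. Neighbours in this order, such as S100a8 and Retnlg, were not tested against each other.

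Prtn3, proteinase 3, is a serine protease of the same azurophil granule and the immediate neighbour of Elane on chromosome 10, with 3137 bases between the genes (GRCm38.p6, Prtn3 from 79879667 to 79883174 and Elane from 79886312 to 79888216). Its reads numbered 422, 555, 1507 and 501 in the TgLC livers, against 14, 5 and 12 in the TgL livers. The log2 fold change was 6.0 with an SE of 0.45 (limma, adjusted p = 3.09e-05). TgLC replicate 3 was the highest liver for Prtn3 and for Elane. Without it the TgLC mean was 497 normalized counts, 50.2 times the TgL mean, in place of 754 and 76.1 times.

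In neutrophil precursors both proteases are made together, but here Elane had far fewer reads than Prtn3. In TgLC livers, 26 Elane reads stood beside 2985 Prtn3 reads, or 0.871 per 100, with an exact 95% interval of 0.570 to 1.27. In TgL livers the reads were 2 and 31. Per kilobase of exon, Prtn3 averaged 435 normalized counts in TgLC livers and 5.72 in TgL livers. The genes on either side, named here for their position, gave other values. Plppr3, upstream, had a log2 fold change of 0.11 with an SE of 0.41 (limma, adjusted p = 0.858). Cfd, the complement factor adipsin that lies beyond Elane, had 20, 23, 0 and 0 reads in TgLC livers, against 36, 44 and 1 reads in TgL livers, so that it was near 0 in every liver of title series B. The summed globin genes had 1636, 2853, 7265 and 9045 normalized counts in TgLC livers, against 1086, 1047 and 1935 in TgL livers. Their part in the Prtn3 and Elane reads was not tested.

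**Figure D2:**
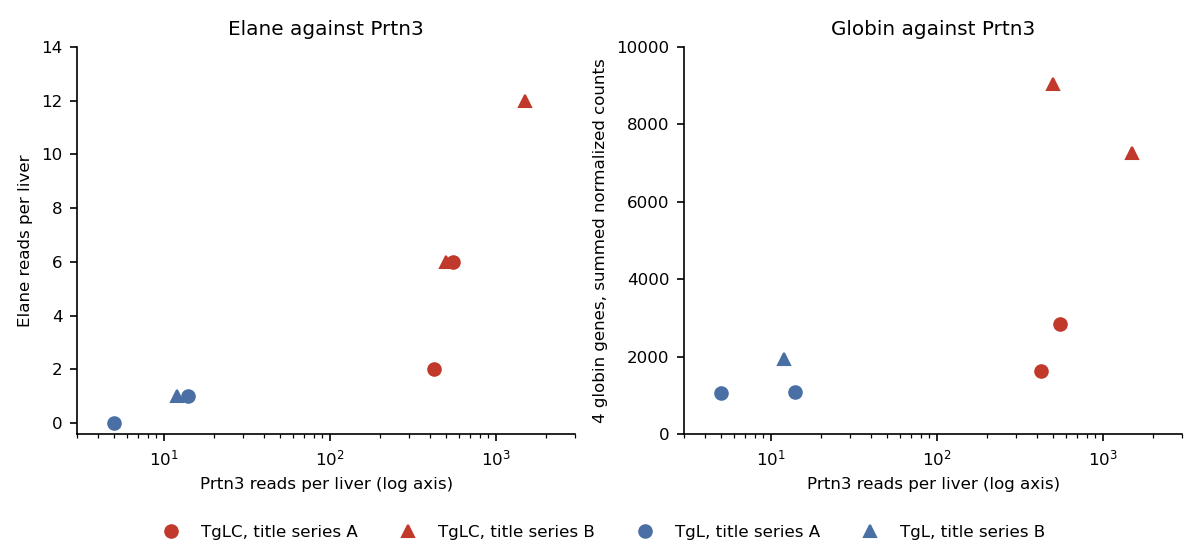
Elane reads (left) and the summed normalized counts of 4 globin genes (right) against Prtn3 reads on a log axis, 1 point per liver, in 4 TgLC and 3 TgL livers. Elane is highest in the liver with 1507 Prtn3 reads but stays at 12 reads, and the globin sum is highest in the 2 TgLC livers of title series B.

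Of 49 further neutrophil genes listed by compartment, 40 had a value and 28 were tested. In TgLC livers 14 rose, 2 fell and 12 did not pass, where 16.2% of all genes tested rose and 15.0% fell. The median log2 fold change was 0.55, beside 0.00184 over all genes tested. Of the 14 that rose, Prtn3, Mmp8, Chil3, Il1r2 and Itgam reached the minimum only through the TgLC livers, and of the 2 that fell, Serpinb1a reached it only through the TgL livers, so that the filter helped to set this count and median. Of the 21 whose mean reached 10 in each genotype, 9 rose and 1 fell, with a median of 0.49. Several of these genes are also made by hepatocytes or macrophages, so the list is not specific to neutrophils in liver. The count of 14 was 9 with library totals in edgeR, 9 when TgL replicate 1 was left out and 3 in the title series B livers alone.

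Of 5 genes tested in the list for the azurophil granule, 4 rose and 1 fell. The 1 that fell, Serpinb1a, encodes a cytosolic inhibitor and not a protein of the granule. Besides Prtn3, Cd63, a tetraspanin of granule and lysosome membranes, rose by 2.81 on the log2 scale with an SE of 0.39 (limma, adjusted p = 0.00084). Srgn, the proteoglycan that packs granule proteases, rose by 0.60 (SE 0.16, limma, adjusted p = 0.0196). Ctsc, the protease that activates the neutrophil serine proteases, rose by 0.49 (SE 0.16, limma, adjusted p = 0.0481), and this call was lost in 10 of 18 alternatives, with adjusted p up to 0.520. Serpinb1a, an inhibitor of these proteases, had 6, 3, 6 and 3 reads in TgLC livers, against 46, 40 and 67 reads in TgL livers. It fell by 3.21 on the log2 scale with an SE of 0.38 (limma, adjusted p = 0.000376).

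Of 7 genes tested in the list for the specific granule, 3 rose. That list also holds the oxidase genes Ncf1 and Ncf4, whose proteins lie in the cytosol, so its count is not that of granule proteins alone. Lcn2, lipocalin 2, which hepatocytes also make as an acute-phase protein, had 34253 to 43272 normalized counts in TgLC livers, against 165 to 597 in TgL livers. It rose by 7.09 on the log2 scale (SE 0.37, limma, adjusted p = 4.48e-06). Chil3, a chitinase-like protein of neutrophils and macrophages, had 89, 41, 20 and 106 reads in TgLC livers, against 3, 0 and 4 reads in TgL livers. Chil3 rose by 4.36 (SE 0.70, limma, adjusted p = 0.00189), and reads shared with its close copy Chil4 cannot be told apart here. Mmp8, neutrophil collagenase, had 31, 20, 12 and 18 reads in TgLC livers, against 6, 1 and 5 reads in TgL livers, and rose by 2.26 (SE 0.53, limma, adjusted p = 0.0118).

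A further 4 genes encode parts of the NADPH oxidase, the enzyme that makes superoxide at the phagosome, and none of these 4 passed in limma over all mice, with Cyba and Cybb at an unadjusted p under 0.05. Cyba was called higher in 7 of 18 alternatives, edgeR with TMM and DESeq2 among them. Cybb was called lower in 2 of 18, with library totals in edgeR and without TgLC replicate 1. Cyba had a log2 fold change of 0.84 (limma, adjusted p = 0.0505), Ncf4 of 0.38 (adjusted p = 0.318) and Ncf1 of 0.01 (adjusted p = 0.967). Cybb, the catalytic subunit, had -0.62 (limma, adjusted p = 0.0624). Olfm4, olfactomedin 4, was under the minimum, with 3, 5, 0 and 1 reads in TgLC livers, against 1, 0 and 9 reads in TgL livers.

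**Figure D3:**
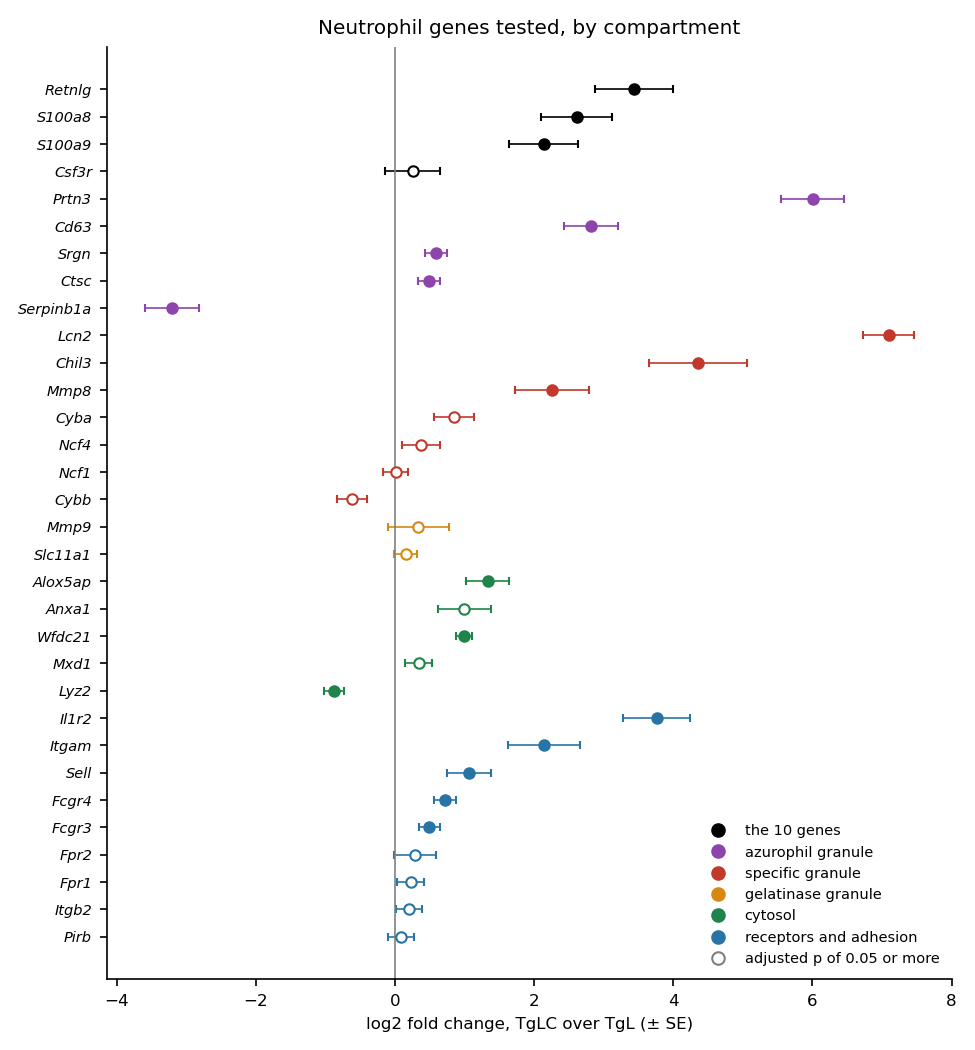
Log2 fold changes (TgLC over TgL, ± SE) of the 4 members and 28 further neutrophil genes tested, grouped by the compartment they were listed under. Filled points have a limma adjusted p under 0.05. Lcn2 at 7.09 and Prtn3 at 6.0 lie far to the right, and Serpinb1a at -3.21 far to the left.

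Of 9 receptor and adhesion genes tested, 5 rose and 4 did not pass. The decoy interleukin-1 receptor Il1r2 had 19, 16, 25 and 21 reads in TgLC livers, against 1, 0 and 1 reads in TgL livers, and rose by 3.76 on the log2 scale (SE 0.48, limma, adjusted p = 0.000526). A pair of further receptors are named after their values had been seen. Cxcr2, the receptor for Cxcl1, had 14, 9, 4 and 10 reads in TgLC livers, against 0, 0 and 3 reads in TgL livers, with a mean under the minimum. Itgam, the CD11b integrin subunit of neutrophils and monocytes, rose by 2.14 (SE 0.52, limma, adjusted p = 0.0136). In the list named for the cytosol, which also holds secreted and granule proteins, Wfdc21 rose by 0.99 (SE 0.11, limma, adjusted p = 0.00028). Lyz2, on the same list, encodes lysozyme, a granule enzyme of macrophages and neutrophils. It fell by 0.87 (SE 0.14, limma, adjusted p = 0.00206) and is not in the granule counts above. The 2 gelatinase granule genes tested did not pass, Mmp9 with a log2 fold change of 0.34 (limma, adjusted p = 0.587) and Slc11a1 with 0.15 (adjusted p = 0.522).

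A list of genes tied to neutrophil recruitment was also read. Cxcl1, a chemokine that binds Cxcr2, averaged 1844 ± 401 normalized counts in TgLC livers (SD, n = 4) and 42.8 ± 8.86 in TgL livers (SD, n = 3). It rose by 5.39 on the log2 scale (SE 0.20, limma, adjusted p = 8.71e-07). Of 5 genes tested in this list, 3 rose (Cxcl1, Lbp and the platelet chemokine gene Ppbp). Of these, Ppbp reached the minimum only through the TgLC livers. Cxcl12, which holds neutrophils in marrow, fell by 0.87 (SE 0.18, limma, adjusted p = 0.00688). The list is not of chemoattractants alone, since C5ar1, which did not pass, encodes a receptor and Lbp an acute-phase protein. Lbp, which binds lipopolysaccharide, rose by 2.53 and Ppbp by 2.62 (limma, adjusted p = 3.32e-06 and 0.00405). Of 7 genes tested in a list for granulopoiesis, 2 rose. The transcription factor gene Cebpd rose by 3.03 (SE 0.17, limma, adjusted p = 6.91e-06). Csf1, the macrophage growth factor gene, rose by 1.94 (SE 0.21, limma, adjusted p = 0.000221). Cebpd is of the C/EBP family, which also acts in the acute-phase liver, and which cells made these reads was not tested. Csf3, which encodes G-CSF, was not analysed here.

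Markers of other cells were read beside the members, and their part in the results was not tested. Of 8 pan leukocyte markers 1 fell (Lcp1) and 7 did not pass, and their summed level was 1426 to 1580 normalized counts in TgLC livers, against 1775 to 2260 in TgL livers. Lcp1 alone set these sums apart, since the other 7 markers summed to 684 to 931 in TgLC livers, against 706 to 1080 in TgL livers. Of 4 monocyte markers tested 2 rose, Fn1 and Plac8, of which Fn1 is also made by hepatocytes, and Plac8 had 148 to 269 normalized counts in TgLC livers, against 57.7 to 117 in TgL livers. Kupffer cell markers summed to 4574 to 7698 in TgLC livers, against 5348 to 7029 in TgL livers, and 1 of 9 rose (C1qb, limma, adjusted p = 0.0456), with overlapping groups and a call that was lost in 9 of 18 alternatives. The 3 platelet markers tested rose (Itga2b, Pf4 and Ppbp), of which Pf4 and Ppbp reached the minimum only through the TgLC livers. Itga2b had 716 to 1046 normalized counts in TgLC livers, against 36.7 to 38.8 in TgL livers, and the other platelet markers summed to 46.1 to 94.2 in TgLC livers, against 6.26 to 14.3 in TgL livers. Erythroid markers summed to 1713 to 9341 in TgLC livers, against 1198 to 2201 in TgL livers, and 3 of 6 rose (Hbb-bs, Hbb-bt and Hba-a1). The groups overlapped in each of these 3 genes, and their calls were lost in 6, 8 and 7 of 18 alternatives, with adjusted p up to 0.146, 0.120 and 0.150.

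Hepatocyte markers were the most abundant of the lists, as the tissue label has it, with Alb at 550874 to 700732 normalized counts in TgLC livers, against 923741 to 992652 in TgL livers (log2 fold change -0.61, limma, adjusted p = 0.169). Of 7 hepatocyte markers Hnf4a rose by 0.45 (adjusted p = 0.0347, a call lost in 10 of 18 alternatives), while Ttr fell by 0.91 and Cps1 by 1.72 (limma, adjusted p = 0.00185 and 0.00359). Of 6 endothelial markers Pecam1 rose (limma, adjusted p = 0.0386, a call lost in 8 of 18 alternatives). Of 6 stellate cell markers Dcn and Des rose and Ecm1 fell, and of 4 cholangiocyte markers tested Sox9 rose by 3.95 (limma, adjusted p = 1.68e-05).

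Lymphoid and other granulocyte markers were low. T cell markers summed to 17.2 to 40.0 normalized counts in TgLC livers, against 25.9 to 55.1 in TgL livers, with Lck highest. NK cell markers summed to 11.0 to 38.9 in TgLC livers, against 17.9 to 39.8 in TgL livers, with Gzma highest. B cell markers summed to 37.1 to 364 in TgLC livers, against 149 to 349 in TgL livers, with Ighm highest. Of the eosinophil markers Ear2 rose by 1.09 (SE 0.26, limma, adjusted p = 0.0133), while Prg2 averaged 0.256 in TgLC livers and 1.35 in TgL livers. Ccr3 had 2, 0, 0 and 4 reads in TgLC livers, against 9, 4 and 44 reads in TgL livers. Siglecf averaged 2.27 normalized counts in TgLC livers and 2.57 in TgL livers. Kit, the only basophil and mast cell marker with a value, had 47.1 to 102 in TgLC livers, against 77.5 to 121 in TgL livers.

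Within the title series as sorted here, the higher level of the mature neutrophil genes was larger in series A than in series B. In series B the TgLC and TgL livers have titles of unlike form, so its differences cannot be assigned to genotype alone. For S100a8 the log2 difference was 3.60 in series A (2 TgLC against 2 TgL livers) and 1.09 in series B (2 TgLC livers against 1). For S100a9 it was 2.95 in series A and 0.71 in series B, and for Retnlg 4.29 in series A and 2.21 in series B. In all 3 genes the TgLC livers lay above the TgL livers within each series. Limma within series A called S100a8, S100a9 and Retnlg (adjusted p = 0.000841, 0.00165 and 0.00206), and within series B it called none of the 3 members tested there (S100a8, S100a9 and Csf3r), also at an unadjusted p under 0.05, with S100a8 at an adjusted p of 0.230 and S100a9 at 0.352. Retnlg was under the minimum in series B and was not tested there.

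Csf3r turned direction between the series. Its log2 difference was 1.07 in series A (limma, adjusted p = 0.0150) and -0.84 in series B (limma, adjusted p = 0.307). The difference between the series was tested as an interaction in limma, an alternative added after the values had been seen. It was -1.91 with an SE of 0.50 for Csf3r (adjusted p = 0.0938), -2.51 with an SE of 0.64 for S100a8 (adjusted p = 0.0884), -2.25 with an SE of 0.63 for S100a9 (adjusted p = 0.105) and -2.08 with an SE of 0.92 for Retnlg (adjusted p = 0.232). None of the 4 passed, though all but Retnlg had an unadjusted p under 0.05, and 1.86% of all genes tested passed. Series B holds 1 TgL liver, so that each of its differences rests on TgL replicate 3. Its TgLC livers have titles of another form, which cannot be told apart from genotype there. Prtn3 kept its size, at 5.77 in series A and 6.05 in series B.

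**Figure D4:**
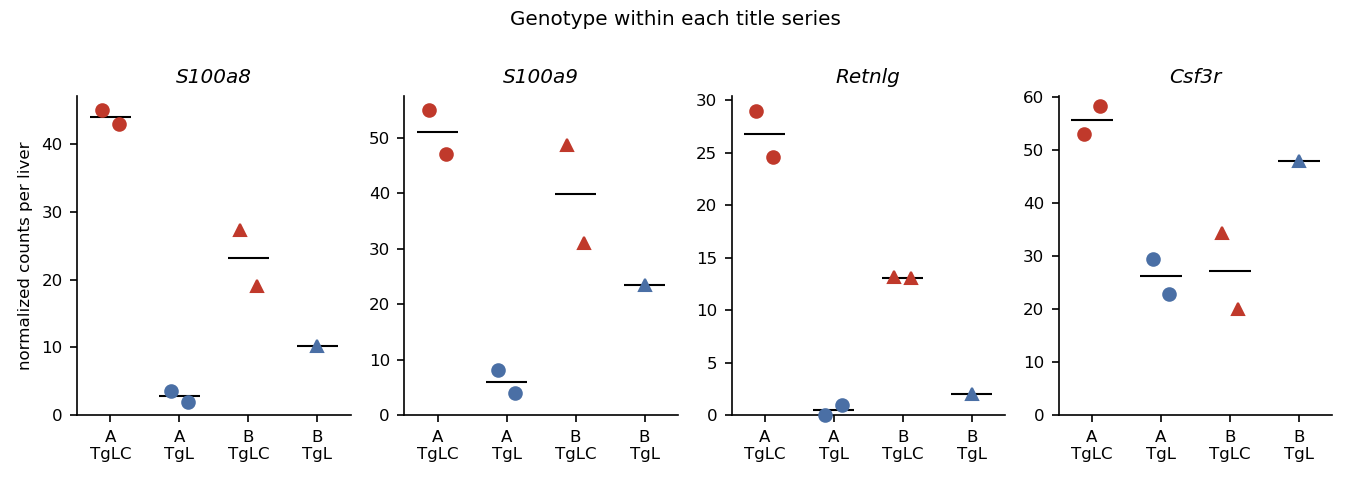
Normalized counts of S100a8, S100a9, Retnlg and Csf3r per liver, by title series (A or B) and genotype. Points are livers and lines are means. TgLC lies above TgL in both series for the first 3 genes, while Csf3r is higher in TgLC in series A and lower in series B.

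Finally, genes whose profile over the 7 livers was most like that of the members were sought. The profile was the mean of the centred log2 values of S100a8, S100a9, Retnlg and Csf3r, and it ran from 1.37 in TgLC replicate 1 to -1.76 in TgL replicate 2, with TgLC replicate 4 at 0.25 and TgL replicate 3 at -0.30. The 8 genes with the smallest root mean square difference from it were Nfasc (0.262 log2 units), Slc16a6, Zbtb7c, Serpina3f, Ccnjl, Mefv, Aldh18a1 and Cerkl (0.337). S100a8 and S100a9 lay at 0.283 and 0.295 from the same profile, to which they contribute, but Retnlg lay at 0.748 and Csf3r at 0.940. In Nfasc, as in S100a8, TgL replicate 3 was the highest TgL liver.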

How the data were processed

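Liver RNA of 4 TgLC and 3 TgL mice was sequenced in bulk. The authors trimmed reads with fastp, aligned them with HISAT2 2.0.5, counted them per gene with featureCounts 1.5.0-p3 and normalized with DESeq2 1.20.0. For genome build, annotation and strand setting: not given in the sources used here. The deposited values are a normalized signal, counts divided by 1 size factor per mouse. Divided by the smallest step of each mouse, 100% of them came out as whole reads (tolerance 1e-06), which gave the reads used here. Symbols from GENCODE matched 22679 of 23594 identifiers.

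The minimum was a mean of 10 normalized counts in the 7 mice. The 13145 genes that reached it (10449 did not) were tested with limma 3.58.1 (R 4.3.3) on log2(value + 1), with genotype as the only term, an intensity trend and Benjamini-Hochberg adjustment over all genes tested. A log2 fold change is on this scale and understates the change of low genes. Rose and fell mean an adjusted p under 0.05. Low-count members are given as reads with two-sided exact permutation tests. Counting intervals are exact, at 95%, and cover counting error only. Alternatives were edgeR 4.0.16 and DESeq2 1.42.0 on recovered reads, pseudocounts of 0.5 and 5, other minimums, no trend, a fold threshold, leaving out each mouse, and the title series apart or as a covariate. Methods were tested on simulated data. Mice were grouped by the genotype in the labels, and p-values measure only the spread between these mice. Replicate numbers follow accession order and pair nothing.

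Members and gene lists were chosen with earlier results of these data known. The rule for named genes took all members, the azurophil and specific granule genes with a value, of every other list up to 4 rising and 2 falling genes by smallest adjusted p, the highest marker of each blood cell type, Lif, and the 8 genes of most similar profile. Exon lengths are GENCODE unions on GRCm38. Several listed genes, such as Ctsg, Cxcr1 and Cxcl5, were not analysed here, and 1 result is not reported here.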

Additional observations from a re-analysis of the deposited data

Results flagged for a closer look

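In the 4 TgLC livers, 1 liver stood apart from the other 3 in 2 of the 54 genes checked, where chance flags about 5% of groups. In Camp, TgLC replicate 1 had 4 reads and the others 0, so that its gap to the nearest made up all of the range (ratio 1). In Prtn3, TgLC replicate 3 had 1525 normalized counts and its gap made up 0.868 of the range. This liver also had most Elane reads, 12.

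In 3 members (Ngp, Ltf and Csf3r) both TgLC livers of title series A lay above both TgL livers of that series. In the same members both TgLC livers of series B lay below its TgL liver. For Ltf in series A, TgLC replicate 2 and TgL replicates 1 and 2 had 1 read each, set apart only by unequal size factors. The log2 difference was 2.18 in series A and -2.61 in series B for Ngp, and 0.34 in series A and -1.10 in series B for Ltf. Both rest on a few reads and the differences between the series were not tested. For Csf3r it was 1.07 in series A and -0.84 in series B, and the interaction of -1.91 (limma, adjusted p = 0.0938) did not pass.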

How the results depend on the processing

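No paired analysis was possible because replicate numbers only name the mice. The count of members higher in TgLC livers was 3 of 4 tested, beside 16.2% of all genes tested, and between 2 and 3 with 1 mouse left out. It was 4 in DESeq2 and with no minimum, where all 10 members were fitted. It was also 4 in title series A alone, where 2474 of 13252 genes were called higher. It was 0 in title series B alone (limma; 0 also at an unadjusted p under 0.05 among 3 members tested), where 501 genes in all and 3 of the wider list were called higher. In title series B 13000 genes were tested in all. No member was called lower in limma, edgeR or DESeq2, nor at an unadjusted p under 0.05. Genes called higher numbered 1174 with library totals in edgeR and 990 with a fold of at least 2 as well, beside 2127, and the wider list gave 9 in both, beside 14. With 1 mouse left out all genes gave 1381 (without TgL replicate 1) to 2072 and the wider list 9 (without TgL replicate 1) to 14. Low-count members with groups apart numbered 1 to 3 with 1 mouse left out, and 3 (Elane, Ngp and Ltf) without TgL replicate 3 and in title series A alone. Without TgL replicate 3, and for Ltf in title series A, this rests on 1 read against 1 read scaled by unequal size factors.

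Of 859 values of 48 single genes under alternatives, 756 kept their direction and side of the threshold, 86 lost and 10 gained the call, and 7 turned direction. Those were Csf3r in title series B alone (-0.84), Ighm in series A alone (1.38), and Ncf1 with library totals (-0.29), in series B alone (-0.23) and with TgLC replicate 1, TgLC replicate 2 or TgL replicate 2 left out (-0.062, -0.046 and -0.018). Over all fits with 1 mouse left out Ncf1 ranged between -0.062 and 0.089. S100a8 ranged between 2.19 and 3.15, S100a9 between 1.61 and 2.76 and Retnlg between 3.0 and 3.81 with 1 mouse left out. With library totals S100a9 was 1.63, beside a median of -0.30 over all genes. Depth limits the 6 low-count members. The causes were not tested.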
